A study of Mus musculus with 2 samples.

Results

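The enzymes that make and recycle nucleotides were examined in KPR- and KPRrestored cells, as the gene symbols of a list of 35 enzymes of purine, pyrimidine and deoxynucleotide synthesis and of salvage. All 35 symbols were found among the 23183 genes of both libraries, and the list holds 13 purine, 8 pyrimidine, 8 deoxynucleotide and 6 salvage genes. Both libraries are mRNA of an immortalized mouse cell line from lung cancers of KPR L/F mice that had not received tamoxifen. The mice carried the Tomato reporter, the Flp ERT2 recombinase, Runx3 flox/FSF and p53 flox/flox, beside an oncogene switched on by Cre. Infection with Ad-Cre, an adenovirus with Cre under the CMV promoter, switched the oncogene on and deleted p53 and the flox allele of Runx3, so both libraries share these changes. The remaining Runx3 allele is kept off by a Frt-Stop-Frt cassette in KPR- cells (genotype RUNX3 -/-, 0 h). In KPRrestored cells (RUNX3 -/+, 16 h), 4-hydroxytamoxifen (4-OHT) activates Flp ERT2, which removes the cassette. The sample records list 1 μM 4-OHT for both libraries, whereas the study made KPRrestored cells by treating KPR- cells with 4-OHT. Whether the KPR- library received 4-OHT is thus unclear. Where it did not, 4-OHT, time and the restored allele cannot be told apart, and in either case time and the restored allele cannot. There is 1 library per condition, and the sources used here do not give how many lines or clones each was made from.

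Nucleotides are made in several connected routes. Purines are built stepwise on phosphoribosyl pyrophosphate (PRPP) up to IMP, which is then turned into AMP or GMP, whereas the pyrimidine ring is closed first and attached to PRPP later. Ribonucleotide reductase turns ribonucleotides into deoxynucleotides for DNA, thymidylate has its own route, and salvage enzymes recover bases and nucleosides. Many of the deoxynucleotide genes are known to peak in S phase, and proliferating cancer cells depend on the de novo routes.

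Expression is given as FPKM, which scales fragments to transcript length and sequencing depth, and a difference is log2(FPKM + 0.005) in KPRrestored minus KPR-. A gene was called higher or lower when it differed by at least 0.5 on this scale, which is a ratio of 1.41 for higher genes and 0.707 for lower genes. Because there are no replicates, no difference has a replicate check and no p-value was computed. The steps between low FPKM values gave estimated depths of 21.7 M fragments (KPR-) and 22.4 M fragments (KPRrestored). From these, each gene received a 95% counting interval (exact Clopper-Pearson), which covers counting error only and compares the 2 libraries, not the conditions. The epithelial markers Epcam (105 and 91.6 FPKM in KPR- and KPRrestored), Cdh1 and Krt8 were high in both libraries, Krt7 was 1229 and 743 FPKM (a log2 difference of -0.73), and the lung markers Sftpc, Sftpb and Scgb1a1 were listed at 0 in both. Runx3 itself was 0.348 FPKM in KPR- and 0.349 FPKM in KPRrestored, so its level does not check the labels, and KPRrestored means the library labelled so. The gene that p53 flox targets, Trp53, was 2.12 and 2.17 FPKM. Whether the Trp53 reads came from exons outside the deleted part was not tested.

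Promoter sequences of 6 members are shown first, because the results turn on these genes: both subunits of S-phase ribonucleotide reductase (Rrm1, Rrm2), the cytosolic and mitochondrial thymidine kinases (Tk1, Tk2), and Ppat and Paics, which start head to head. Each is 300 bases of RefSeq sequence (GRCm38.p6), 250 before the start and 50 from it, in the direction of the gene. The windows are Rrm1 at chr7:102441445-102441744 (plus strand), Rrm2 at chr12:24708004-24708303 (plus), Tk1 at chr11:117825965-117826264 (minus), Tk2 at chr8:104248509-104248808 (minus), Ppat at chr5:76951529-76951828 (minus) and Paics at chr5:76951052-76951351 (plus). Capitals mark letters that match, on either strand, an E2F motif, an E-box, a CCAAT box, a CHR element, a RUNX motif or the CARE element of ATF4.
Rrm1: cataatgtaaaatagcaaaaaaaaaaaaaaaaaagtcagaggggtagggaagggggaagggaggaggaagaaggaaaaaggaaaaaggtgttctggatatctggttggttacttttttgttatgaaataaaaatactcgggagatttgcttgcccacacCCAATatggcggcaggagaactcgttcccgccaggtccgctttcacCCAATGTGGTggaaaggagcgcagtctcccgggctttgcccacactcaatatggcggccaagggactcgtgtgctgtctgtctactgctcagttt
Rrm2: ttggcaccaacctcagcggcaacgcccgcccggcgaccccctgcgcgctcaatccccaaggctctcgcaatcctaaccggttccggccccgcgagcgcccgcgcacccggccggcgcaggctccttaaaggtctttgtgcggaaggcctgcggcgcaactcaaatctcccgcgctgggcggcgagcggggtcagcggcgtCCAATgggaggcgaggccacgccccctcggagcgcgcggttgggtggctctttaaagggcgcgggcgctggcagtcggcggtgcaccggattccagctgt
Tk1: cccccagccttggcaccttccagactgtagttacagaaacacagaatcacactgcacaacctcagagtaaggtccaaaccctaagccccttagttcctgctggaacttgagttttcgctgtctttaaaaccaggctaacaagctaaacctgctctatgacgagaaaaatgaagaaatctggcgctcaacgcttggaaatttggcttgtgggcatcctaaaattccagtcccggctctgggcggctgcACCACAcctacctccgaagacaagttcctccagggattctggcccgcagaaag
Tk2: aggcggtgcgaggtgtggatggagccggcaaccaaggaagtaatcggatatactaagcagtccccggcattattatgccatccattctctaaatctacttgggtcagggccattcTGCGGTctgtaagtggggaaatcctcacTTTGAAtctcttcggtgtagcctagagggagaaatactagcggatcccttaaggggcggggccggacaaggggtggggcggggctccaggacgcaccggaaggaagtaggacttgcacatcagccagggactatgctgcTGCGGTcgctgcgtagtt
Ppat: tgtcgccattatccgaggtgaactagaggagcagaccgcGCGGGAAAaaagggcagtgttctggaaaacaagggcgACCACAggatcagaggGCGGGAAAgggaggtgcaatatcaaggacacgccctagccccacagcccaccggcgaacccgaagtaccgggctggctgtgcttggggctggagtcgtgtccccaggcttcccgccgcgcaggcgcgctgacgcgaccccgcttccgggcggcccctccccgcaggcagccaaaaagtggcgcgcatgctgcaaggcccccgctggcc
Paics: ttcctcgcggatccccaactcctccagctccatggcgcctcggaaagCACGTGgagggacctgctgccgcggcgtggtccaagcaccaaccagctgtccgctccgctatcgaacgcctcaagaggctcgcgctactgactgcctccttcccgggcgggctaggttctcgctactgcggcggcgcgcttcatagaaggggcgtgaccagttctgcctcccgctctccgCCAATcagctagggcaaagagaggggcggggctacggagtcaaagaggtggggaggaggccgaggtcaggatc
In Rrm1 and Rrm2 the capitals are CCAAT boxes, and in Rrm1 the CCAAT box at position -45 (counted from the start, whose first base is 1) shares 1 base with the RUNX letters at -41. Tk1 holds RUNX letters at -3, and Tk2 holds them at -135 and 33 together with CHR letters at -107. Ppat holds E2F letters at -211 and -158 and RUNX letters at -174, while Paics holds an E-box at -203 and a CCAAT box at -23. The capitals are matches of letters, not measured binding sites.

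Nucleotide synthesis genes mostly had lower FPKM in KPRrestored than in KPR- cells. Of the 35 genes, 29 had a difference below 0, beside 49% of the 11231 genes whose FPKM averaged 1 or more over both libraries. In all, 12 members were lower by at least 0.5 (Prps2, Gart, Pfas, Cad, Dhodh, Rrm1, Rrm2, Dut, Dctd, Tk1, Dck and Samhd1), beside 9.29% of all these genes. Only Tk2 among the 35 was higher by at least 0.5, beside 12.1% of all these genes, and 22 members lay within the threshold. The median difference of the members was -0.33, beside 0.0086 over all genes, and the members ranged from -0.88 for Rrm2 to 0.64 for Tk2. The counting interval lay below 0 for 26 members, beside 33.1% of the 11140 genes that had one, and above 0 for 4 members, beside 34.2%. It included 0 for Adsl, Aprt, Ctps2, Rrm2b and Uck2. Summed over the 35 members, FPKM was 2953 in KPR- and 2519 in KPRrestored, a log2 ratio of -0.23. In RNA of whole cultures, fewer cells that express a gene and less RNA per cell cannot be told apart.

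The 4 classes differed in size of difference. Their counts stand beside 9.29% lower, 12.1% higher and 49% below 0 over all genes averaging 1 FPKM or more. Each class holds few genes, so small counts can lie near these shares. The deoxynucleotide genes had a median of -0.54, with 5 of 8 lower by at least 0.5, and their summed FPKM was 500.1 in KPR- and 341 in KPRrestored. The pyrimidine genes had a median of -0.23, with 2 of 8 lower and all 8 below 0. The purine genes had a median of -0.15, with 3 of 13 lower and 4 of 13 above 0. Once the trend with transcript length was removed, their median was -0.22, beside -0.27 for the pyrimidine genes, and Pfas fell short of the threshold. The salvage genes had a median of -0.061, with 2 of 6 lower and 1 higher (a median of -0.14 once the trend with transcript length was removed), and were the class with both the lower Tk1 and the higher Tk2. No test of the difference between classes was made, since genes are not replicates.

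**Figure D1:**
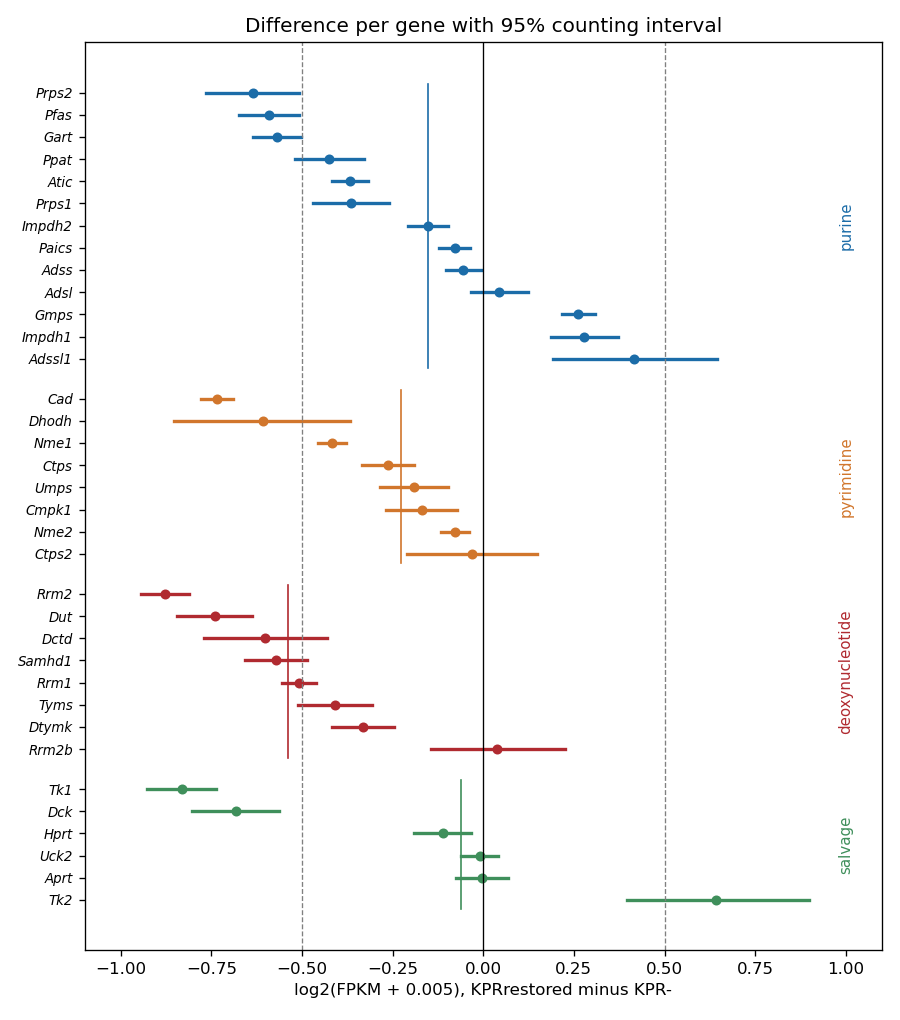
log2 difference of each of the 35 genes between the 2 libraries (KPRrestored minus KPR-, horizontal axis), grouped and coloured by class. Points are differences, bars are 95% counting intervals, coloured vertical lines are class medians and dashed lines mark -0.5 and 0.5: the deoxynucleotide median, -0.54, lies past the lower dashed line, while the purine median is -0.15 and Tk2 alone lies past the upper line.

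Ribonucleotide reductase, which makes deoxynucleotides from ribonucleotides, is built from a large subunit and a small subunit. Rrm2, the small subunit used in S phase, was 119 FPKM in KPR- and 64.9 FPKM in KPRrestored, a ratio of 0.545 and a log2 difference of -0.88 (counting interval -0.94 to -0.81). This was the lowest difference of the 35 members, estimated from 5136 and 2885 fragments. Rrm1, the large subunit, was 111 FPKM in KPR- and 77.8 FPKM in KPRrestored, a log2 difference of -0.51 (-0.55 to -0.46). Rrm1 thus stood just past the threshold, with an interval that crosses it, and Ppat at -0.43 was the nearest member short of it. Rrm2b, the alternative small subunit that p53 is known to induce outside S phase, was 5.04 FPKM in KPR- and 5.18 FPKM in KPRrestored. Its difference was 0.039 with an interval of -0.14 to 0.22, so no difference was detectable at this depth. The FPKM of Rrm2 was 23.7 times that of Rrm2b in KPR- and 12.5 times in KPRrestored. The difference of Rrm2 minus that of Rrm2b was -0.92 (-1.11 to -0.72) on the log2 scale, and because both are measured within each library it does not depend on how the libraries were scaled. Its interval included 0 when shorter transcripts were assumed (-2.01 to 0.16).

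Thymidylate is made from dUMP, which in turn comes from dCMP and dUTP. Dut, which splits dUTP and keeps uracil out of DNA, was 52.1 FPKM in KPR- and 31.2 FPKM in KPRrestored, a log2 difference of -0.74 (-0.85 to -0.64). Dctd, the dCMP deaminase that feeds dUMP to the route, was 14.3 FPKM in KPR- and 9.42 FPKM in KPRrestored, a difference of -0.60 (-0.77 to -0.43). Tyms, the thymidylate synthase that fluorouracil drugs block, was 28.4 FPKM in KPR- and 21.4 FPKM in KPRrestored, a difference of -0.41 (-0.51 to -0.31). Dtymk, the kinase that carries dTMP on to dTDP, was 137 FPKM in KPR- and 109 FPKM in KPRrestored, a difference of -0.33 (-0.42 to -0.25). All 4 genes of the thymidylate route had intervals below 0, but Tyms and Dtymk did not reach the threshold. Samhd1, which breaks deoxynucleotides down, was 33.5 FPKM in KPR- and 22.5 FPKM in KPRrestored, a difference of -0.57 (-0.66 to -0.49). The enzyme of breakdown was thus lower in the same library as the enzymes of synthesis.

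Among the nucleoside kinases of salvage, the cytosolic Tk1 and the mitochondrial Tk2 differed in direction. Tk1, the cytosolic thymidine kinase of S phase, was 92.3 FPKM in KPR- and 51.8 FPKM in KPRrestored, a log2 difference of -0.83 (-0.93 to -0.74). Tk2, the mitochondrial thymidine kinase, was 4.52 FPKM in KPR- and 7.06 FPKM in KPRrestored, a difference of 0.64 (0.40 to 0.90). Tk2 was thus the lowest of the 35 members in KPR- and the only one higher by at least 0.5 in KPRrestored, and its estimate rests on 215 and 347 fragments. The difference of Tk1 minus that of Tk2 was -1.48 (-1.75 to -1.21), the widest gap among the 7 paralog pairs compared, and the share of Tk2 in the summed FPKM of the pair was 4.66% in KPR- and 11.98% in KPRrestored. Tk1 lies at chr11:117815526-117826092 and Tk2 at chr8:104226685-104248558 (GRCm38). Dck, which phosphorylates deoxycytidine and activates drugs such as cytarabine and gemcitabine, was 23.7 FPKM in KPR- and 14.7 FPKM in KPRrestored, a difference of -0.68 (-0.80 to -0.56). Uck2, the uridine-cytidine kinase, was 63.9 FPKM in KPR- and 63.4 FPKM in KPRrestored, a difference of -0.010 (-0.061 to 0.040). No difference of Uck2 was detectable at this depth.

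Salvage of purine bases differed little. Hprt, which recovers hypoxanthine and guanine, was 118 FPKM in KPR- and 109 FPKM in KPRrestored, a difference of -0.11 (-0.19 to -0.035). Aprt, which recovers adenine, was 226 FPKM in both, a difference of -0.0033 (-0.075 to 0.068). After their values were seen, 7 genes of the cytosolic route to DNA precursors (Rrm1, Rrm2, Tyms, Dut, Dtymk, Tk1 and Dck) were put together. Their summed FPKM was 563 in KPR- and 371 in KPRrestored and their median difference was -0.68. Of the partners that supply mitochondria or cells outside S phase, Rrm2b, Tk2 and Dguok (the mitochondrial deoxyguanosine kinase), the summed FPKM was 20.3 in KPR- and 21.9 in KPRrestored and the median difference was 0.039. Tk2 was the only one of these 3 past the threshold, and Dguok was 10.7 FPKM in KPR- and 9.69 FPKM in KPRrestored (-0.15, -0.44 to 0.14). Both groups were formed after the values were known, so the contrast between them is a description.

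**Figure D2:**
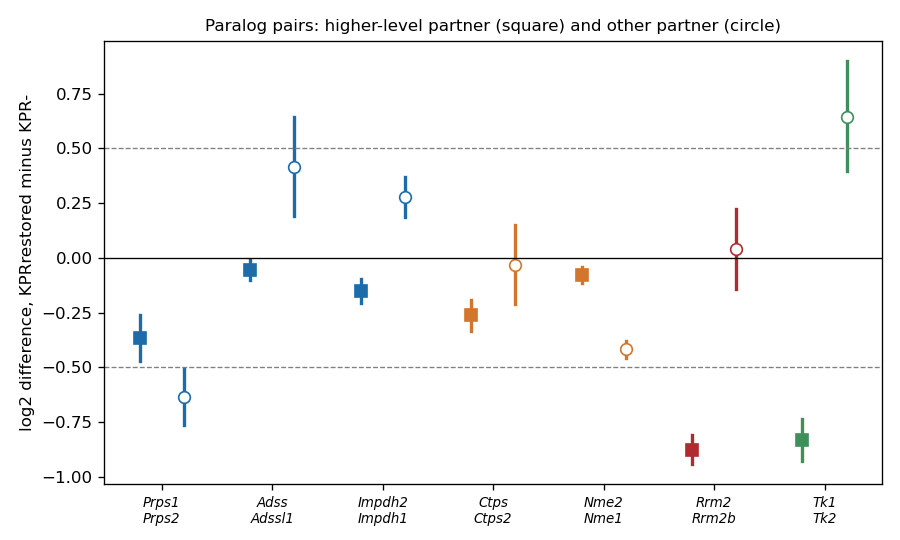
log2 difference (KPRrestored minus KPR-, vertical axis) of both partners of the 7 paralog pairs, with 95% counting intervals as bars, coloured by class as blue (purine), orange (pyrimidine), red (deoxynucleotide) and green (salvage). Squares are the partner with the higher FPKM and circles the other partner; the widest gaps are in Tk1 and Tk2 (-0.83 and 0.64) and in Rrm2 and Rrm2b (-0.88 and 0.039).

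PRPP is the shared substrate of purine and pyrimidine synthesis and of base salvage. Prps1, one of the PRPP synthetases, was 44.4 FPKM in KPR- and 34.5 FPKM in KPRrestored, a difference of -0.37 (-0.47 to -0.26). Prps2, its paralog, was 16.4 FPKM in KPR- and 10.5 FPKM in KPRrestored, a difference of -0.64 (-0.76 to -0.51). Both synthetases had intervals below 0, Prps2 past the threshold, and the difference of Prps1 minus that of Prps2 was 0.27 (0.10 to 0.44). For Prps1, 3.48% of the 100-base windows of its transcript also occur in Prps1l3, which was 25.5 FPKM in KPR- and 29.5 FPKM in KPRrestored, so reads could be split between these genes.

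The enzymes that build IMP did not move evenly. Ppat, which commits PRPP to purine synthesis, was 25.2 FPKM in KPR- and 18.7 FPKM in KPRrestored, a difference of -0.43 (-0.52 to -0.33). Gart, which carries out several of the next steps and uses formyl-folate, was 61.3 FPKM in KPR- and 41.3 FPKM in KPRrestored, a difference of -0.57 (-0.64 to -0.50). Pfas, which acts between Gart steps, was 22.1 FPKM in KPR- and 14.6 FPKM in KPRrestored, a difference of -0.59 (-0.67 to -0.51). These enzymes early in the route all had intervals below 0, with Ppat short of the threshold. Paics, the bifunctional enzyme after them, was 179 FPKM in KPR- and 169 FPKM in KPRrestored, a difference of -0.079 (-0.12 to -0.036). Adsl, which acts both here and in the AMP branch, was 34.2 FPKM in KPR- and 35.3 FPKM in KPRrestored, a difference of 0.045 (-0.033 to 0.12). Atic, which closes the ring to IMP, was 130 FPKM in KPR- and 100.4 FPKM in KPRrestored, a difference of -0.37 (-0.42 to -0.32). Thus 5 of the 6 genes of the IMP route lay below 0, with Gart and Pfas past the threshold. Pfas was at -0.46, short of it, once the trend with transcript length was removed. For Gart, 8.57% of the 100-base windows also occur in Gm15964, which lies on the opposite strand. Gm15964 is not among the genes with a deposited value, so how reads of these windows were assigned is uncertain.

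Ppat and Paics, whose promoters are printed above, start from neighbouring sites on opposite strands of chromosome 5 (Ppat at chr5:76913249-76951578 and Paics at chr5:76951307-76967509), and their first exons overlap by 272 bases. Their differences were not alike: the difference of Paics minus that of Ppat was 0.35 (0.24 to 0.45). The FPKM of Paics was 7.11 times that of Ppat in KPR- and 9.04 times in KPRrestored. Reads from the shared 272 bases can be assigned only by strand. The library kit was directional, but whether the counting used strand is not given in the sources used here.

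After IMP the route divides, and both branches held genes with higher FPKM in KPRrestored, short of the threshold. In the GMP branch, Impdh1, one of the IMP dehydrogenases that mycophenolate blocks, was 35.1 FPKM in KPR- and 42.6 FPKM in KPRrestored, a difference of 0.28 (0.19 to 0.37). Impdh2, the isoform known to be raised in proliferating cells, was 160 FPKM in KPR- and 144 FPKM in KPRrestored, a difference of -0.15 (-0.21 to -0.10). Gmps, which then makes GMP, was 40.8 FPKM in KPR- and 49.0 FPKM in KPRrestored, a difference of 0.26 (0.22 to 0.31). The difference of Impdh2 minus that of Impdh1 was -0.43 (-0.54 to -0.32). For Impdh2, 64.6% of the 100-base windows also occur in its pseudogene Impdh2-ps. This pseudogene is not among the genes with a deposited value, so how such reads were assigned, and with it the value of Impdh2, is uncertain. In the AMP branch, Adss, the adenylosuccinate synthase found in most tissues, was 131 FPKM in KPR- and 126 FPKM in KPRrestored, a difference of -0.055 (-0.10 to -0.0075). Adssl1, the isoform best known from muscle, was 8.17 FPKM in KPR- and 10.9 FPKM in KPRrestored, a difference of 0.42 (0.19 to 0.65), and the difference of Adss minus that of Adssl1 was -0.47 (-0.71 to -0.24). None of the 5 genes of the AMP and GMP branches reached the threshold, and their intervals lay above 0 for Adssl1, Impdh1 and Gmps. Summed over each branch, FPKM was 139 in KPR- and 137 in KPRrestored for AMP, and 236 and 235 for GMP.

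**Figure D3:**
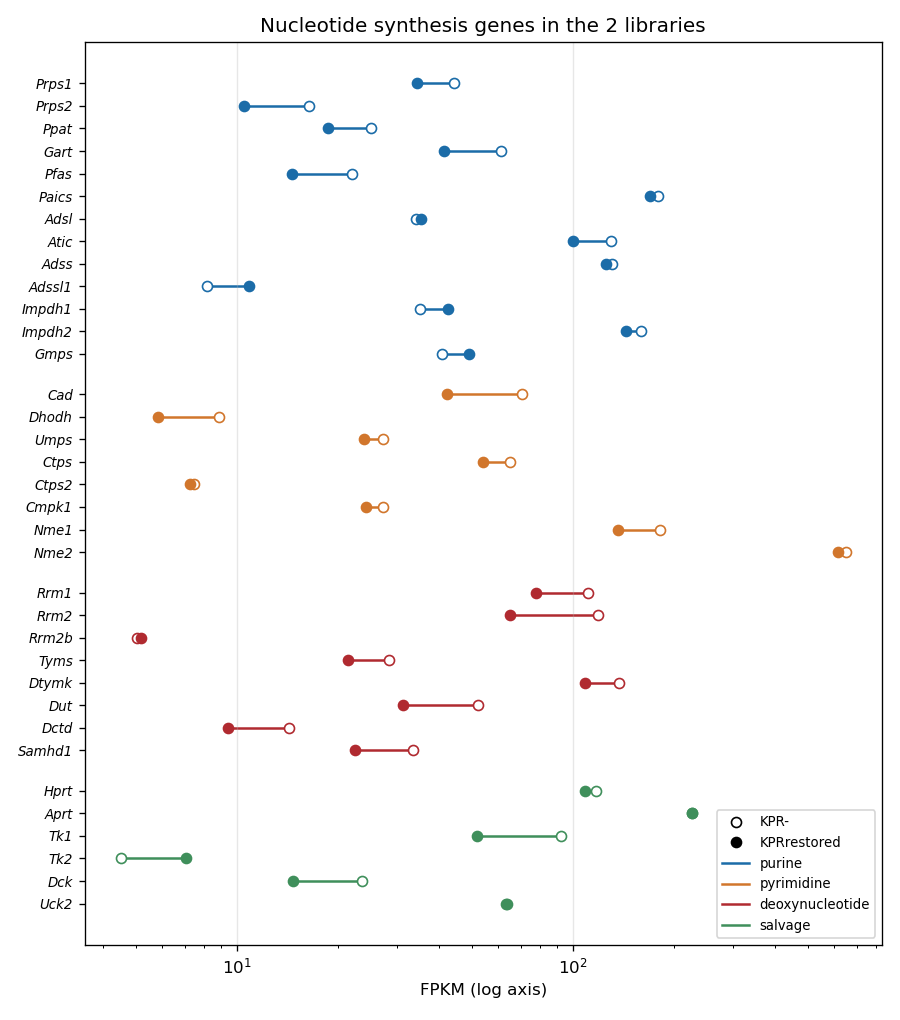
FPKM of each of the 35 genes (horizontal, log axis) in the KPR- library (open circle) and the KPRrestored library (filled circle), coloured by class. Levels run from 4.52 FPKM (Tk2 in KPR-) to 650 FPKM (Nme2 in KPR-), and in most rows the filled circle lies to the left of the open one.

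The pyrimidine genes with the lowest differences act early in the route. Cad, the multifunctional enzyme that opens the route and is controlled by growth signals, was 70.4 FPKM in KPR- and 42.3 FPKM in KPRrestored, a difference of -0.73 (-0.78 to -0.69). Its estimate rests on 10607 and 6575 fragments. Dhodh, the mitochondrial enzyme that oxidizes dihydroorotate, was 8.86 FPKM in KPR- and 5.81 FPKM in KPRrestored, a difference of -0.61 (-0.85 to -0.37). Its interval is wide, since it rests on 352 and 238 fragments. Umps, which completes UMP, was 27.3 FPKM in KPR- and 23.9 FPKM in KPRrestored, a difference of -0.19 (-0.28 to -0.10). The 3 genes of the de novo route together summed to 107 FPKM in KPR- and 72.1 FPKM in KPRrestored.

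The later pyrimidine steps differed less. Ctps, the CTP synthase that proliferating lymphocytes require, was 64.9 FPKM in KPR- and 54.1 FPKM in KPRrestored, a difference of -0.26 (-0.33 to -0.19). Ctps2, its paralog, was 7.44 FPKM in KPR- and 7.28 FPKM in KPRrestored, a difference of -0.032 (-0.21 to 0.15). The difference of Ctps minus that of Ctps2 was -0.23 (-0.43 to -0.039), and this interval included 0 when shorter transcripts were assumed (-0.69 to 0.22). Cmpk1, the kinase of UMP and CMP, was 27.3 FPKM in KPR- and 24.3 FPKM in KPRrestored, a difference of -0.17 (-0.27 to -0.072). Of the nucleoside diphosphate kinases, which equilibrate the triphosphates, Nme1 was 182 FPKM in KPR- and 136 FPKM in KPRrestored, a difference of -0.42 (-0.46 to -0.38). Nme2 was the most abundant of the 35 in both libraries, with 650 FPKM in KPR- and 615 FPKM in KPRrestored, a difference of -0.078 (-0.12 to -0.040). Nme2 alone made up 22.0% of the summed FPKM of the members in KPR- and 24.4% in KPRrestored, so sums over the list follow it more than any other gene. For Nme2, 52% of the 100-base windows and for Nme1 10.4% also occur in the readthrough gene Gm20390. Gm20390 is not among the genes with a deposited value, so how reads of these windows were assigned is uncertain.

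Across the 35 members, the difference showed no clear order with level or transcript length: Spearman's rho was -0.040 with FPKM in KPR- and -0.068 with transcript length (n = 35 genes of the same 2 libraries). Over all genes, rho with transcript length was -0.21 (n = 11178). The 12 lower members lay between Dhodh at 8.86 FPKM and Rrm2 at 119 FPKM in KPR-, while the 8 most abundant members and the 4 least abundant in KPR- were not among them.

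**Figure D4:**
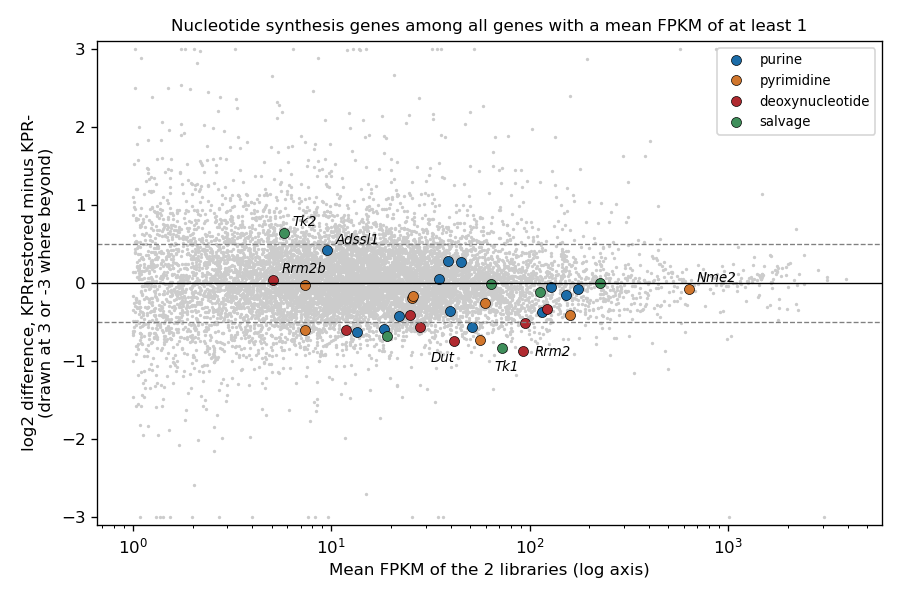
log2 difference (KPRrestored minus KPR-, vertical axis) against mean FPKM of both libraries (log axis) for the 11231 genes whose FPKM averaged 1 or more (grey) and the 35 members, coloured by class. Dashed lines mark -0.5 and 0.5; 12 members lie below the lower line and Tk2 above the upper line.

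Other genes around the same routes were taken from lists of kinases, breakdown enzymes, transporters and folate enzymes. Of 15 other nucleotide and nucleoside kinases whose FPKM averaged 1 or more (of 16 listed), 1 was lower and 1 higher by at least 0.5, and the median was -0.046. The lower one was Adk, the adenosine kinase, at 37.3 FPKM in KPR- and 24.5 FPKM in KPRrestored (-0.61), and the higher one was Uckl1, a relative of the uridine-cytidine kinases, at 9.27 and 14.5 FPKM (0.64). Of 21 breakdown and pool-cleaning enzymes (of 30 listed), 3 were lower and 3 higher, with a median of 0.036. Nt5e, the ecto-enzyme CD73 that makes adenosine from extracellular AMP, was 0.448 FPKM in KPR- and 2.55 FPKM in KPRrestored (2.50), the highest difference of that list, while Gmpr, which returns GMP to IMP, was 4.85 and 2.88 FPKM (-0.75). Among 4 nucleoside and base transporters (of 8 listed), Slc29a1, the equilibrative nucleoside transporter, was 109 FPKM in KPR- and 76.2 FPKM in KPRrestored (-0.52), and Slc43a3, a purine base transporter, was 11.9 and 20.4 FPKM (0.77). In each of these 3 lists, as many genes were higher as were lower. Over all genes averaging 1 FPKM or more, 12.1% were higher and 9.29% lower. The lists are short, so these counts say little about them.

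Folate enzymes supply the one-carbon units of purines and thymidylate. Of 16 folate and serine genes (of 17 listed), 2 were lower and 6 higher, with a median of 0.14. Over all genes averaging 1 FPKM or more, 9.29% were lower and 12.1% higher. The range ran from Slc25a32, the mitochondrial folate carrier, at 8.25 FPKM in KPR- and 4.77 FPKM in KPRrestored (-0.79), to Aldh1l2, a mitochondrial formyl-folate dehydrogenase, at 2.03 and 15.0 FPKM (2.88). Split after the values were seen, the cytosolic enzymes Shmt1 and Mthfd1 summed to 101 FPKM in KPR- and 70.7 FPKM in KPRrestored (-0.52), and both were below 0, Mthfd1 past the threshold. In contrast, 6 mitochondrial folate genes summed to 192 FPKM in KPR- and 388 FPKM in KPRrestored (1.01), with a median of 0.60 and with intervals above 0 for 4 and below 0 for 2 (Slc25a32 and Mthfd2l). Much of that sum was Shmt2 at 109 and 224 FPKM (1.04) and Mthfd2 at 31.1 and 99.5 FPKM (1.68). The serine synthesis genes Phgdh, Psat1 and Psph summed to 611 FPKM in KPR- and 921 FPKM in KPRrestored (0.59). Of the 16 folate and serine genes, 7 had a difference below 0 and 9 above it. Their directions were thus mixed, and only part of them went the way of most nucleotide genes.

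DNA replication genes use the products of these enzymes, and many had lower FPKM in KPRrestored too. The counts below stand beside 9.29% lower and 12.1% higher over all genes averaging 1 FPKM or more. Of 31 replication fork genes, 10 were lower by at least 0.5 and none higher, with a median of -0.35, from Pola1 (a DNA polymerase alpha subunit) at 22.8 FPKM in KPR- and 10.9 FPKM in KPRrestored (-1.06) to Gins4 at 39.7 and 42.6 FPKM (0.10). Of 20 mitosis genes, 7 were lower and none higher, with a median of -0.35, from Mki67, the proliferation marker, at 101 and 60.1 FPKM (-0.75) to Ube2c at 230.2 and 248 FPKM (0.10). The share of cycling cells in each culture was not measured in these files, and its part in the lower nucleotide genes was not tested. The 15 reference genes had a median of -0.065, with 14 within the threshold, from Tfrc, the transferrin receptor, at -0.78 to Rpl13a, a ribosomal protein gene, at 0.17. Their counting intervals lay below 0 for 9 and above 0 for 6, and none included 0. An interval off 0 is therefore not particular to the members. Markers of other cell types each had lower FPKM than Epcam in both libraries. The 7 fibroblast markers summed to 12.7 FPKM in KPR- and 5.35 FPKM in KPRrestored. Most of this was Col1a1 at 12.2 and 4.21 FPKM (a log2 difference of -1.53). Dcn went the other way at a low level, 0.173 and 0.742 FPKM (2.07), and Thy1 was listed at 0 in both. The 4 endothelial markers summed to 1.16 and 2.22 FPKM, mostly Kdr (a log2 difference of 0.89), with Tek listed at 0 in both, and the 6 leukocyte markers to 3.13 and 6.79 FPKM, nearly all Cd68, with Ptprc at 0 in KPR- and 0.0089 FPKM in KPRrestored. Their part in the results was not tested.

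**Figure D5:**
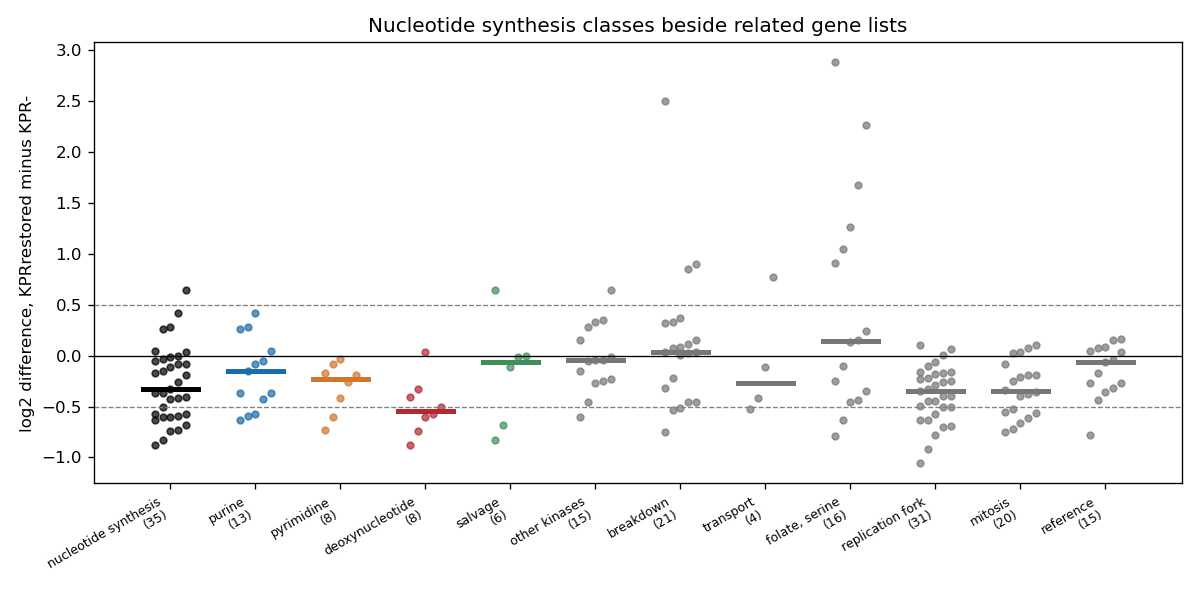
log2 difference (KPRrestored minus KPR-, vertical axis) of the 35 members and their 4 classes (black and coloured points) beside 7 related gene lists (grey points), limited to genes averaging 1 FPKM or more; horizontal bars are medians, dashed lines mark -0.5 and 0.5 and the number of genes is given under each name. The members (-0.33), the replication fork genes (-0.35) and the mitosis genes (-0.35) have medians below 0, while the other kinases (-0.046) and the breakdown genes (0.036) lie near 0.

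Transcription factors known to act on nucleotide genes are given by level. E2F factors drive S-phase genes such as those of the reductase and thymidine kinase. E2f1 was 18.2 FPKM in KPR- and 17.5 FPKM in KPRrestored (-0.060), and E2f2 was 4.12 and 6.90 FPKM (0.74). E2f3 was 12.9 and 10.8 FPKM (-0.25), and E2f4, mostly a repressor in resting cells, was 42.9 and 35.3 FPKM (-0.28). The repressors E2f7 and E2f8, themselves expressed in S phase, were 8.72 and 4.62 FPKM (-0.91) and 23.9 and 13.0 FPKM (-0.88). Myc, which binds E-boxes and is known to activate Cad and purine genes, was 73.6 FPKM in KPR- and 117 FPKM in KPRrestored (0.67). Its relative Mycn was 0.689 and 0.335 FPKM, and its partner Max was 31.6 and 31.4 FPKM (-0.014). Atf4, the stress factor that drives serine and mitochondrial folate genes, was 145 and 446 FPKM (1.62). In all, 2 of the 9 factors whose FPKM averaged 1 or more were lower (E2f7 and E2f8) and 3 higher (Myc, E2f2 and Atf4). Over all such genes, 9.29% were lower and 12.1% higher. The part of these factors in the levels of the nucleotide genes was not tested.

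The printed promoters were part of a search of 32 members that had a RefSeq window (40 windows, since some members have several starts), beside 32851 windows of the same length. No window was found for Dhodh, Pfas and Rrm2b. The E2F letters (TTTCCCGC, TTTCGCGC, TTTGCCGC or TTTGGCGC) were in 2.26% of all windows and in those of 2 members, Prps2 and Ppat. The E-box CACGTG was in 7.15% of all windows and 17.5% of the members' windows, in Paics, Atic, Impdh2, Nme1, Tyms and Dtymk, and in none of the 10 lower members with a window. CCAAT was in 37.4% of all windows and 30% of the members' windows, and the CHR letters TTTGAA in 17.9% and 12.5%. The RUNX letters TGTGGT or TGCGGT were in 22.4% of all windows and 42.5% of the members' windows, in 16 of 32 members and 6 of the 10 lower ones. No share per gene was computed over all genes, so the counts of members have no like share beside them. Overlapping windows of 1 gene can also hold the same site, as in Ctps2. The CARE letters TTGCATCA were in 0.895% of all windows and in none of the members'. Both strands were searched, base composition was not matched, and a match says nothing of binding.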

How the data were processed

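Poly(A) RNA of KPR- and KPRrestored cells was sequenced as 1 directional paired-end library per condition. The authors trimmed the reads, mapped them to mm10 (per the submitters' processing notes) using TopHat and estimated expression using Cufflinks, and the deposited values are FPKM per gene. Versions and annotation are not given in the sources used here. Of the gene symbols, 22148 matched GENCODE M21 (GRCm38) directly and 666 through a synonym.

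Differences were computed as log2(FPKM + 0.005), which understates the change of low genes, with a threshold of 0.5, the scale of the study. Depth was estimated from the steps that whole fragments make in low FPKM values, with a mean fragment of 214 bases: 77.8% (KPR-) and 79.3% (KPRrestored) of the genes of a single length with 0.5 to 5.5 estimated fragments lay within 0.1 of a whole number. Fragments use the longest transcript with a RefSeq counterpart, so a gene that is mostly read from shorter transcripts has fewer fragments than estimated and a wider interval. The steps were tested on simulated data made with the same length formula and a single length per gene. That test cannot show how well the estimate holds for genes with several transcripts.

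The members and lists were chosen with earlier results of these data known. Named were all members, the genes with the highest and lowest difference of each other list, all regulators, Runx3 and Trp53. 1 gene of the folate list and 1 gene that the alleles target are not reported here. Genes named in groups formed after their values were seen are given as such, and the cell type markers Epcam, Cdh1, Krt8, Sftpc, Sftpb, Scgb1a1, Thy1, Tek and Ptprc were picked as defining ones. Dcn was named because its difference was opposite in sign to that of Col1a1. Alternatives were other pseudocounts, scalings, filters, a threshold of 1, removal of the transcript length trend, shorter transcripts and equal depths. Intervals were computed using scipy 1.17.1, with numpy 2.4.6 and pandas 2.3.3 in Python 3.11.15, and plots using matplotlib 3.10.9.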

Additional observations from a re-analysis of the deposited data

How the results depend on the processing

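No paired analysis was possible because there is 1 library per condition, and for the same reason no library could be left out. With a threshold of 1, 0 members were higher and 0 lower, since the members ranged from -0.88 to 0.64. Pseudocounts of 0.1 or 1, scaling to the same FPKM total or upper quartile and centring on the median gene left 12 members lower and 1 higher, and moved no member past its counting interval. Removing the trend with transcript length moved 14 of the 35 members past their interval, changed the sign of Uck2 only (to 0.066), left 11 members lower (Pfas was then at -0.46), and moved the median of the purine genes to -0.22 and that of the salvage genes to -0.14. Where the shortest coding transcript (350 bases or more) was assumed, 24 members had an interval below 0 and 3 above it. The differences between Ctps and Ctps2 (-0.23, interval -0.69 to 0.22) and between Rrm2 and Rrm2b (-0.92, interval -2.01 to 0.16) then included 0, since fewer fragments were assumed. With equal depths, 22 members had an interval below 0 and 5 above it. Depth limits Tk2, Dhodh, Adssl1 and Rrm2b most, and variation between cultures was not measured.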
